A study of Mus musculus with 96 samples.

Results

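The comparison set the cerebellum of heterozygous Q50 knock-in mice against that of control mice at 10 months of age, by small RNA sequencing. Its members are the 8 libraries labelled as heterozygous Q50 mice of 10 months and the 24 libraries labelled as Q20 or wild type (WT) mice of the same age, 32 of the 96 libraries of the series, chosen by genotype and age alone. Q50 mice carried 1 wild type Htt allele and 1 Htt allele into which a human HTT exon 1 with a repeat of the Q50 class had been knocked in. The controls were 8 heterozygous Q20 mice, whose knock-in allele has a repeat of a length found in unaffected people, 8 WT littermates from the Q20 line and 8 WT littermates from the Q50 line. All were untreated mice labelled as C57BL/6, from knock-in males mated to C57BL/6J females, with 4 females and 4 males in each group of 8. Cages held mice of 1 sex, heterozygous and WT together, and the study's methods do not say whether lines were mixed in a cage. The study's methods count 4 female and 4 male animals in each group and tissue, which is 1 animal for each library. The Q50 group stands for a single knock-in line, so a difference from Q20 mice is a difference of allele and of line at once.

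MicroRNAs are short RNAs cut from hairpin precursors, the stem-loops counted here. A mature microRNA guides an Argonaute protein to partly complementary sites in messenger RNAs and lowers their translation or stability. In Huntington's disease a CAG repeat in the first exon of HTT is expanded and codes for a long run of glutamines in huntingtin, a protein found in every cell. The striatum is the brain region most affected, and the cerebellum, which holds granule and Purkinje neurons, is usually less affected in adult disease.

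The values were estimated counts for stem-loops given by miRBase ID. The files used here do not pair these IDs with microRNA names, so roles, sequences and positions are not given, cell type markers were not examined, and at most 2 IDs in each direction are printed for a comparison. In whole tissue, fewer cells of a type and less RNA per cell cannot be told apart. Totals ran from 5435778 to 7793800 estimated counts per library over the 32 libraries, and the 434 stem-loops tested held at least 99.9847% of every library. Within a group of 1 genotype and sex at 10 months, no library looked like a second copy of another. The closest of the 72 such pairs gave a chi-square of 18.3 for each degree of freedom, and pairs across groups were not compared. Each library also carries an L tag in its name, which the labels do not define. The Q50 libraries were split 4 and 4 between tags 1 and 8 and the controls 14 and 10, and the tag was a term of the fit.

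Of the 32 libraries, the 3 whose profiles lay farthest from the others of their age were Q50 libraries, grouped after the data were seen. Standardized connectivity (Z.k), which falls as a library's profile moves away from those of the other libraries of its age, was -4.30 in Q50 female 3, -3.36 in Q50 male 4 and -2.43 in Q50 male 3. In the other 5 Q50 libraries it ran from -1.03 to 0.41, and in the 24 controls from -1.98 to 1.27. Libraries of longer repeats at this age were also low, at -3.79 in Q140 male 1, -3.67 in Q140 female 4 and -3.51 in Q92 female 3. All 8 Q50 libraries lay above the limit of -5 used in the study and were kept. The main counts and the named stem-loops are given with these libraries and with some or all of them left out.

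At 10 months 11 stem-loops rose and 5 fell in Q50 mice, by the quasi-likelihood test of edgeR with a Benjamini-Hochberg adjusted p under 0.05. These 16 were 3.69% of the 434 tested, with 2.53% of those tested called higher and 1.15% called lower. At an unadjusted p under 0.05 there were 71 stem-loops, 44 higher and 27 lower. The rises were the larger changes. The 11 risen stem-loops had log2 fold changes of 0.23 to 1.41 (median 0.40), and the 5 fallen ones of -0.23 to -0.16 (median -0.20), beside a median absolute change of 0.09 over all 434. The risen ones were of low to moderate abundance, 5.77 to 1412 CPM in controls (CPM being counts scaled to library size with TMM factors), while the fallen ones ran from 32.2 to 153394 CPM. Together the risen 11 took 0.312% to 2.04% of a Q50 library (median 0.591%) and 0.220% to 0.570% of a control library (median 0.360%). The fallen 5 took 17.0% to 21.9% of a Q50 library and 19.4% to 24.6% of a control library. Under DESeq2 with its own size factors, 12 rose and 9 fell, and under RLE factors in edgeR 11 rose and 8 fell, with the 16 called in both. With outlying values replaced in DESeq2, 5 rose and 7 fell, 10 of them among the 16. With the replicate number of each library as a block in the fit, edgeR made 0 calls, and 75 stem-loops had an unadjusted p under 0.05. When the 5 libraries of this age with a Z.k below -3 were dropped, Q50 female 3 and Q50 male 4 among them, no stem-loop passed in edgeR, and 28 had an unadjusted p under 0.05.

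**Figure D1:**
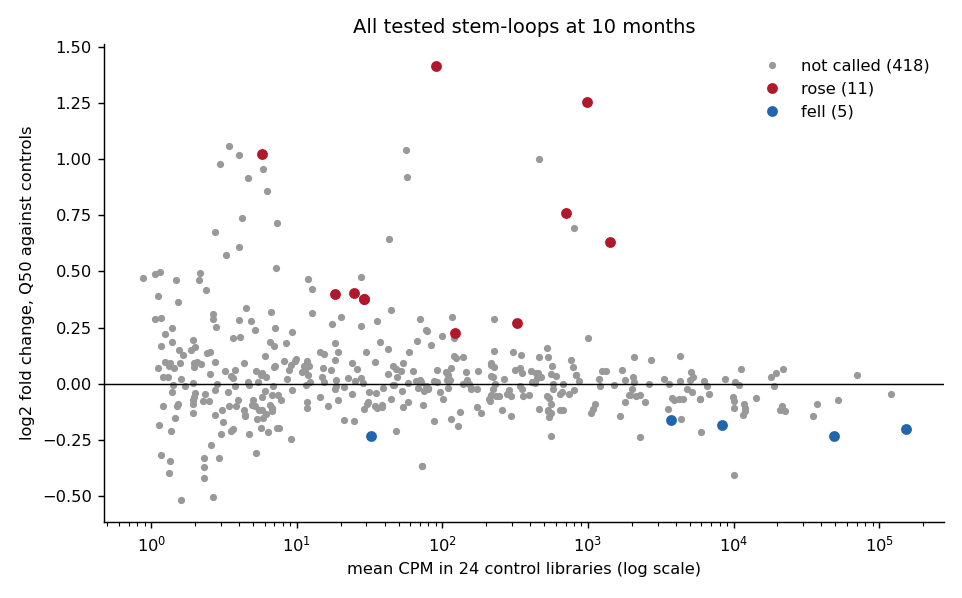
The log2 fold change of Q50 against controls (y axis) is plotted against the mean CPM in the 24 control libraries (x axis, log scale) for the 434 tested stem-loops at 10 months, with the 11 that rose in red, the 5 that fell in blue and the others in grey. The risen stem-loops reach a log2 fold change of 1.41, those with identical values share 1 point, and the fallen ones stay between -0.23 and -0.16.

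The largest change was that of MI0000225. Its level was 257 CPM in Q50 female 1, 87.6 in female 2, 742 in female 3, 144 in female 4, 160 in male 1, 69.3 in male 2, 92.5 in male 3 and 401 in male 4. The 24 controls ran from 35.7 to 233 CPM with a median of 65.8, so Q50 female 1, female 3 and male 4 lay above every control and the other 5 within the control range, all above its median. The means were 244 ± 229 CPM in Q50 (SD, n = 8) and 89.9 ± 54.8 CPM in controls (SD, n = 24). The log2 fold change of MI0000225 was 1.41 ± 0.34 (SE, edgeR adjusted p = 0.0265). After those 5 libraries were dropped it was 0.60 (edgeR adjusted p = 0.660), and the 6 remaining Q50 libraries had a mean of 135 ± 69.1 CPM (SD).

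MI0000224 showed the same libraries on top at a higher level. It stood at 2988 CPM in Q50 female 1, 1021 in female 2, 6499 in female 3, 1432 in female 4, 1761 in male 1, 662 in male 2, 929 in male 3 and 3774 in male 4. Controls ran from 278 to 2473 CPM with a median of 777, and Q50 female 1, female 3 and male 4 were again above all of them. The log2 fold change of MI0000224 was 1.25 ± 0.32 (SE, edgeR adjusted p = 0.0265), from means of 2383 ± 1981 CPM (SD, n = 8) and 990 ± 587 CPM (SD, n = 24). After the same libraries were dropped it was 0.57 (edgeR adjusted p = 0.660). Neither stem-loop held split reads, a term used here for values more than 0.001 from a whole number. Such values are read as reads that fit several stem-loops and were divided between them, which was not tested. Whole values do not show that a stem-loop shared no reads.

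Among controls, both stem-loops were lower in males than in females on average. MI0000225 averaged 116 ± 66.3 CPM in the 12 control females and 63.8 ± 20.0 CPM in the 12 control males, and MI0000224 averaged 1294 ± 691 and 685 ± 203 CPM. The ranges overlapped, sex was a term of the fit, and the difference between control sexes was not tested.

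MI0000151 and MI0014041 had the largest falls. MI0000151 stood at 48154 CPM in Q50 female 1, 48793 in female 2, 36604 in female 3, 43691 in female 4, 46468 in male 1, 40307 in male 2, 37960 in male 3 and 35590 in male 4. Controls ran from 41454 to 63609 CPM with a median of 48279, so 4 Q50 libraries (female 3, male 2, male 3 and male 4) lay below every control and the 8 libraries all lay below the control mean. The log2 fold change of MI0000151 was -0.23 ± 0.06 (SE, edgeR adjusted p = 0.0265), with means of 42196 ± 5291 CPM in Q50 (SD, n = 8) and 49134 ± 5802 CPM in controls (SD, n = 24). It was -0.16 after those 5 libraries were dropped (edgeR adjusted p = 0.660).

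MI0014041 is a stem-loop of low level, at 26.5 CPM in Q50 female 1, 27.8 in female 2, 25.8 in female 3, 22.7 in female 4, 33.2 in male 1, 31.2 in male 2, 25.8 in male 3 and 26.7 in male 4. These are 165 to 225 estimated counts per library, and controls ran from 26.4 to 38.2 CPM with a median of 31.7. Female 3, female 4 and male 3 lay below the lowest control. The log2 fold change of MI0014041 was -0.23 ± 0.06 (SE, edgeR adjusted p = 0.0265), and -0.21 after those 5 libraries were dropped (edgeR adjusted p = 0.583). Of these 4 stem-loops it moved least when those libraries were left out, and only MI0000225 and MI0000224 moved by over 1.5 times.

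**Figure D2:**
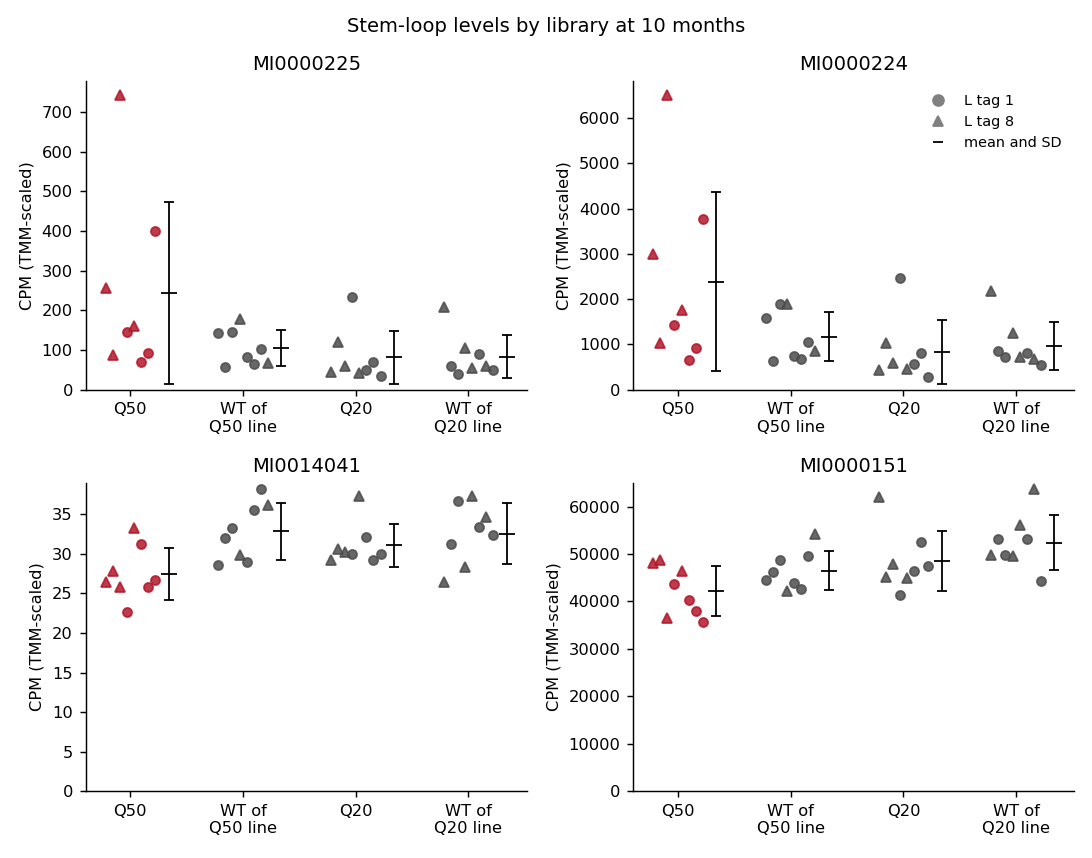
Each panel gives the TMM-scaled CPM of 1 stem-loop in the 8 libraries of each group at 10 months, with circles for L tag 1 and triangles for L tag 8, Q50 in red, controls in grey, and the mean with its SD as a bar beside each group. For MI0000225 and MI0000224, 3 Q50 libraries sit above every control and the other 5 inside the control range, while MI0014041 and MI0000151 overlap the controls at lower levels.

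The called stem-loops were not raised or lowered evenly over the 8 Q50 libraries. Q50 female 3 was above the highest control for 11 of the 11 risen stem-loops and below the lowest control for 5 of the 5 fallen ones. Q50 male 3 was above for 8 and below for 5, and Q50 male 4 was above for 4 and below for 1. Q50 female 1 and Q50 male 1 were each above for 2, which in Q50 female 1 were MI0000225 and MI0000224, and Q50 female 2, female 4 and male 2 were above for none. In the median over the risen stem-loops, Q50 female 3 stood 1.26 above the control median on the log2 scale, Q50 male 3 stood 0.64 above it, Q50 male 1 stood 0.33 above it and Q50 male 4 stood 0.31 above it. Over all 434 stem-loops the same measure was 0.05 in Q50 female 3. The risen stem-loops also differed in which libraries carried them. For MI0000225, MI0000224 and MI0000583 the highest Q50 libraries were female 3 and male 4, whereas for 7 of the other 8 they were female 3 and male 3. Of the 434 tested stem-loops, Q50 female 3 was the highest of the 32 libraries in 50, Q50 male 3 in 26 and Q50 male 4 in 25. Among controls, Q20 male 4 and Q20-line WT female 3 were each the highest in 41, and Q20 female 4 in 26. For how many of the 434 each Q50 library lay above or below every control was not counted.

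The spread within the Q50 group was wider for the stem-loops that rose. The SD of log2 CPM in Q50 was 1.10 to 4.66 times that in controls for the 11 risen stem-loops (median 1.96), with all 11 above 1. Over all 434 the median ratio was 1.08 and 246 were above 1, and for the 5 fallen ones the ratio ran from 0.864 to 1.15. For each risen stem-loop 2 or 3 of the 8 Q50 libraries lay above the highest control, and for each fallen one 2 to 4 lay below the lowest. Of all 434 tested, 149 had at least 1 Q50 library above the highest control. How many of the 434 had 2 or more above, or any below the lowest control, was not counted. The 16 had been chosen on this same contrast, so these counts describe them and no more.

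The called stem-loops were also looked at in other libraries. Q20-line WT female 3 at 6 months, which has no knock-in allele, had a Z.k of -4.71 and was the highest of the 23 controls of that age for 9 of the 11 risen stem-loops and the lowest for 3 of the 5 fallen ones. Its median over the risen ones was 1.23 above the control median of its age on the log2 scale. MI0000685, one of the 11, stood at 5745 CPM in that WT library and at 4944 CPM in Q50 female 3 at 10 months, against 508 to 985 CPM in the 24 controls of 10 months. At 10 months, Q92 female 3, with a Z.k of -3.51, was above every control for 4 of the 11. The 2 Q140 libraries with a Z.k under -3 were above for none. Among the controls of 10 months, Q50-line WT female 1 (Z.k -1.70) was above all other controls for 5 of the 11. Q20 female 4 (Z.k -0.95) was above all other controls for 3 of the 11 and below them for 3 of the 5. The remaining controls of that age were above for 0 or 1. For none of these libraries was the same count made over all tested stem-loops. Whether the called stem-loops stood out from the rest in these libraries therefore cannot be told from these counts.

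**Figure D3:**
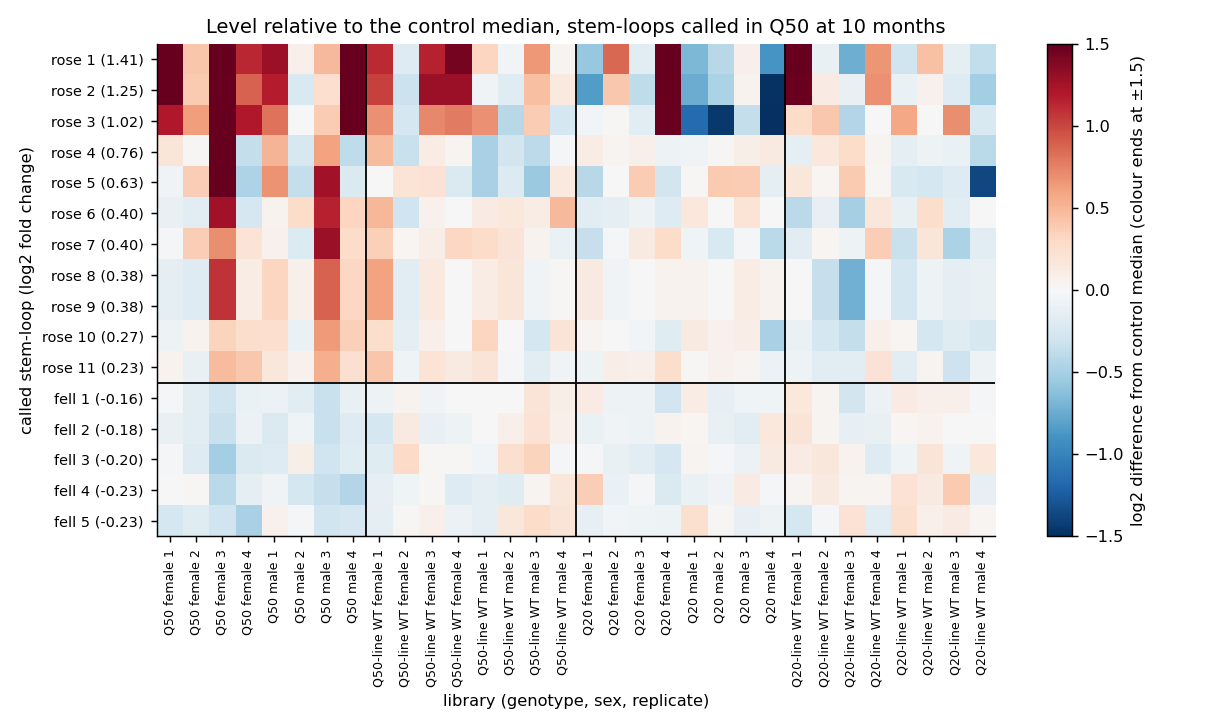
Rows are the 16 called stem-loops, labelled by direction with their log2 fold change, columns are the 32 libraries of 10 months in 4 groups of 8, and colour gives the log2 difference from the median of the 24 controls, with colours ending at 1.5 in both directions. The column of Q50 female 3 is red in all 11 risen rows and blue in all 5 fallen rows. Those of Q50 female 2 and Q50 male 2 have medians of 0.05 and -0.01 over the risen rows and of -0.17 and -0.06 over the fallen rows.

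The number of calls followed single libraries. Without Q50 female 3 no stem-loop was called, without Q50 male 4 only 1 and without Q50 male 3 only 3. Without Q50 male 2 there were 30 calls and without Q50 female 1 there were 25, and in both cases these held the original 16. Control libraries also moved the count, which was 25 without Q50-line WT female 1, 10 without Q20 female 1 or Q20 male 4, and 8 without Q20-line WT female 2 or Q20-line WT male 3. With any 1 of the 48 libraries of 10 months left out, the 16 stem-loops had the same signs as with all of them. Without Q50 female 3 the median of the risen ones went from 0.40 to 0.26 and that of the fallen ones from -0.20 to -0.16. Without Q50 male 4 the medians were 0.43 and -0.19, and without Q50 male 3 they were 0.28 and -0.17. With Q50 female 3, male 3 and male 4 all left out, an alternative chosen after seeing the data, edgeR called none, 13 stem-loops had an unadjusted p under 0.05, 15 of the 16 kept their sign, and the medians were 0.11 and -0.12. With that alternative MI0000225 was at 0.59 ± 0.38 (SE), MI0000224 at 0.56, MI0000151 at -0.13 ± 0.07 (SE) and MI0014041 at -0.18.

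**Figure D4:**
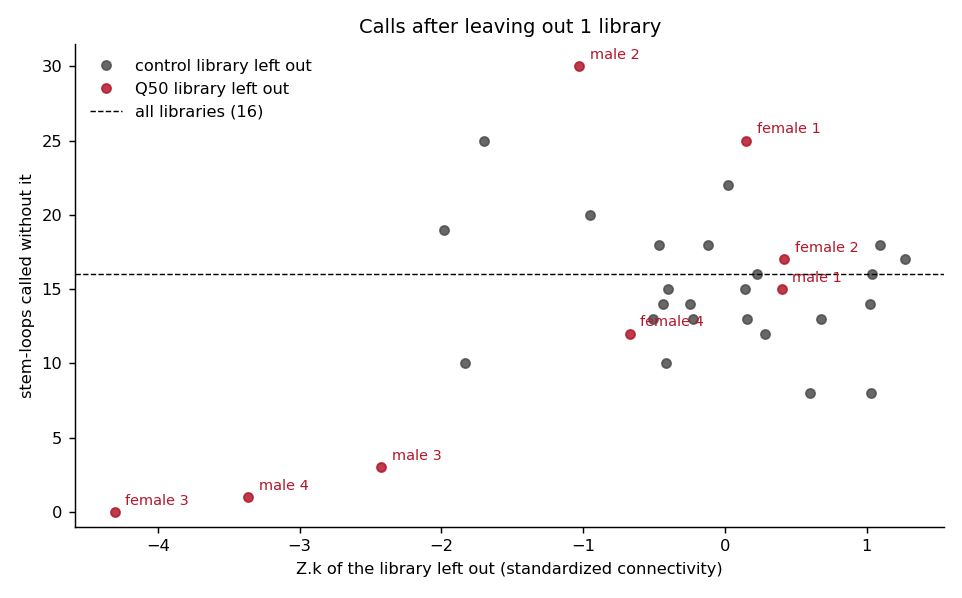
The number of stem-loops called for Q50 against controls when 1 library is left out (y axis) is plotted against the Z.k of that library (x axis), with Q50 libraries in red and named, controls in grey and a dashed line at the 16 calls made with all libraries. Leaving out Q50 female 3, male 4 or male 3 gives 0, 1 and 3 calls, and leaving out Q50 male 2 gives 30.

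The levels of MI0000225, MI0000224 and MI0000583 were set against each other across libraries as a description, with no test, since all were picked for being high in the same Q50 libraries and MI0000583 was added after its values were seen. MI0000583 also rose (5.10 to 28.2 CPM in Q50 against 1.39 to 14.3 CPM in controls). Over the 24 controls, log2 CPM of MI0000225 and MI0000224 had a Pearson's r of 0.95 and a Spearman's rho of 0.93. Without the 2 libraries farthest from the median r was 0.92. As the control sexes differ in mean level, r was also taken within them, and it was 0.95 in the 12 females and 0.90 in the 12 males. It was 0.93 within the 14 controls of tag 1 and 0.97 within the 10 of tag 8. For MI0000583 r was lower in controls, 0.71 to MI0000225 (rho 0.72) and 0.75 to MI0000224 (rho 0.70). Its level there is low (mean 5.77 CPM), and how far counting error lowers its r was not tested. These were 0.79 and 0.79 in control females, 0.70 and 0.76 in control males, 0.85 and 0.88 within tag 1 and 0.46 and 0.50 within tag 8. Over the 8 Q50 libraries r of MI0000225 and MI0000224 was 0.99 and rho 0.98, and r of MI0000583 was 0.96 to each of them.

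Among the 16 called stem-loops, 2 had identical values in every library and so stand for a single measurement. The values of 7 of the 16, 4 risen and 3 fallen, held split reads, as did 152 of the 434 tested, so their levels may depend on how such reads were divided.

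Q50 mice were also compared with the WT littermates of their own line. In edgeR no stem-loop passed (0% of 434, lowest adjusted p = 0.124), 44 had an unadjusted p under 0.05, and DESeq2 likewise gave 0 calls. The comparison shares its Q50 libraries and 8 of its controls with the one above, so its values are not independent of it. The 11 stem-loops that rose against all controls had log2 fold changes of 0.15 to 1.13 against littermates (median 0.26, against 0.00 over all tested), and 6 had an unadjusted p under 0.05. The 5 that fell had values of -0.27 to -0.17, all 5 with an unadjusted p under 0.05. MI0000726 had the lowest p, at 2935 to 3629 CPM in Q50 and 3497 to 4211 CPM in littermates, with a log2 fold change of -0.21 ± 0.05 (SE, edgeR adjusted p = 0.124), and -0.18 without Q50 female 3. Its Q50 and littermate ranges overlapped only between 3497 and 3629 CPM, and its counts held split reads. MI0014041 had a log2 fold change of -0.27 ± 0.08 (SE, edgeR adjusted p = 0.176), and -0.26 without Q50 female 3.

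Of the stem-loops with higher values against littermates, MI0000232 had the lowest p, at 14.6 to 28.7 CPM in Q50 and 12.5 to 20.0 CPM in littermates, with a log2 fold change of 0.39 ± 0.12 (SE, edgeR adjusted p = 0.247), and 0.37 without Q50 female 3. The WT mice of the Q20 line had 15.7 to 27.2 CPM, and in the comparison of the WT groups MI0000232 was lower in the Q50 line by a log2 value of -0.34 ± 0.12 (SE, edgeR adjusted p = 0.417). MI0000685 had a log2 fold change of 0.79 ± 0.26 against littermates (SE, edgeR adjusted p = 0.262), and 0.19 without Q50 female 3. Without Q50-line WT female 1 edgeR called 3 stem-loops lower against littermates, and without Q92 female 2, which enters through the shared spread, it called 1.

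Against the 16 libraries of the Q20 line (Q20 mice and their WT littermates), 11 stem-loops rose and 7 fell in edgeR, 4.15% of the 434 tested, with 2.53% higher and 1.61% lower. These edgeR calls held 10 of the 11 risen and 3 of the 5 fallen stem-loops described above. On the FPKM scale limma called 14 higher and 1 lower, 11 of them among the 18. Both edgeR comparisons use the 8 Q50 libraries and share 16 controls, so their shared calls are not independent. MI0000225 had a log2 fold change of 1.57 ± 0.37 (SE, edgeR adjusted p = 0.0102), with 35.7 to 233 CPM in the 16 libraries (median 59.3). MI0000583 had one of 1.15 ± 0.27 (SE, edgeR adjusted p = 0.0102). MI0000151 was at -0.26 ± 0.06 (SE, edgeR adjusted p = 0.0102), with 41454 to 63609 CPM in the Q20 line. MI0003491 fell from 1702 ± 116 CPM (SD, n = 16) to 1504 ± 159 CPM (SD, n = 8), a log2 fold change of -0.18 ± 0.05 (SE, edgeR adjusted p = 0.0139), and its littermates of the Q50 line averaged 1583 ± 128 CPM (SD, n = 8). Without Q50 female 3 none of the 18 passed, and the values were 1.23, 0.89, -0.23 and -0.15 for these 4 stem-loops in that order. There were 4 calls without Q50 male 3, 11 without Q50 male 4, 28 without Q50 female 2 and 33 without Q50 male 2.

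The WT mice of the lines were compared to see how far the lines differ without a knock-in allele. No stem-loop passed in edgeR (0% of 434, lowest adjusted p = 0.417) or in DESeq2, and 40 had an unadjusted p under 0.05. For WT of the Q50 line over WT of the Q20 line, the risen 11 had log2 values of 0.01 to 0.42 (median 0.24). Over all 434 the median was 0.01, with 231 above 0. Of the risen 11, 3 had an unadjusted p under 0.05, and 2 of these 3 are the stem-loops with identical values, a single measurement. For the 5 fallen stem-loops the values ran from -0.15 to 0.04. MI0000225 averaged 105 ± 45.2 CPM in WT of the Q50 line (SD, n = 8) and 83.1 ± 54.4 CPM in WT of the Q20 line (SD, n = 8), a log2 difference of 0.42 ± 0.45 (SE). MI0000151 averaged 46492 ± 4148 and 52396 ± 5728 CPM (SD, n = 8 each), a log2 difference of -0.15 ± 0.07 (SE, edgeR adjusted p = 0.492). Q50-line WT female 1 was the control with the highest median over the risen stem-loops, 0.50 above the control median on the log2 scale, and had a Z.k of -1.70. MI0001161 had the lowest p, with a log2 difference of 0.21 ± 0.07 (SE, edgeR adjusted p = 0.417).

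**Figure D5:**
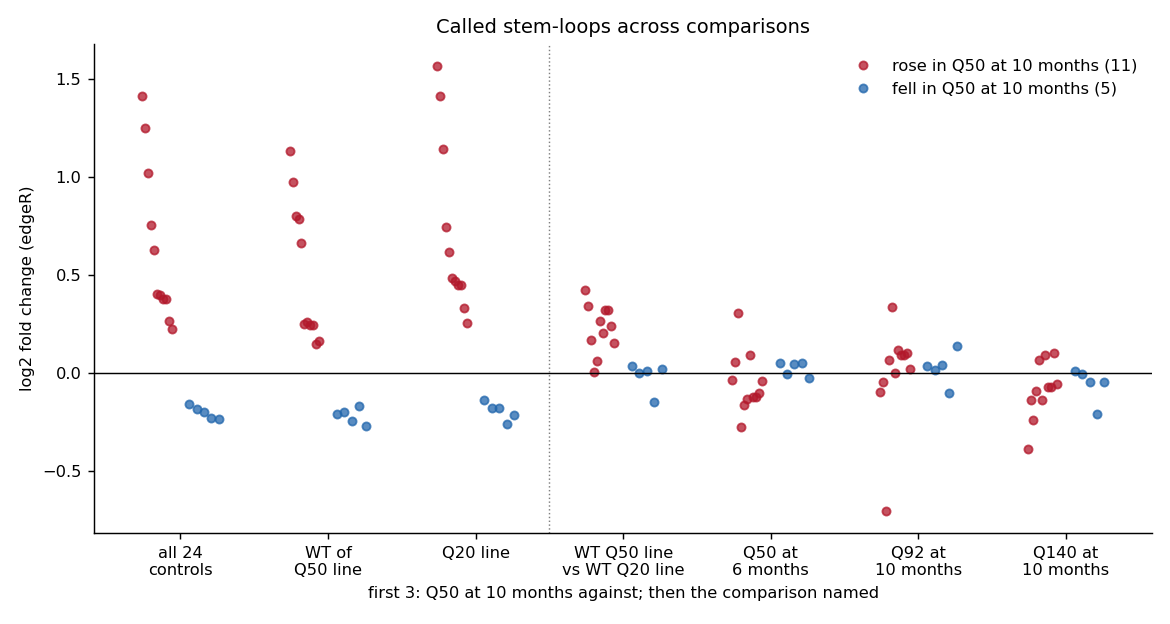
The edgeR log2 fold change (y axis) of the 11 risen (red) and 5 fallen (blue) stem-loops is given in 7 comparisons: Q50 at 10 months against all 24 controls, against WT littermates and against the Q20 line, then WT of the Q50 line against WT of the Q20 line, Q50 at 6 months, and Q92 and Q140 at 10 months. The first 3 share their Q50 libraries, the risen stem-loops lie between 0.01 and 0.42 in the WT comparison, and they scatter around 0 at 6 months and in Q92 and Q140.

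In the sexes taken apart, 1 stem-loop passed in females by edgeR (0.230% of 434) and none in males (0%), with 43 and 42 at an unadjusted p under 0.05. The 16 called stem-loops had the same sign in both sexes, but they had been chosen with the sexes pooled. MI0000225 had log2 fold changes of 1.39 ± 0.49 in females and about the same in males, with a difference between the sexes of 0.12 ± 0.73 (SE). MI0000224 had log2 fold changes of 1.18 ± 0.46 in females and 1.38 ± 0.44 in males (SE). The effect of Q50 did not differ between the sexes for any stem-loop at the threshold (edgeR, 0% of 434, lowest adjusted p = 0.760, 12 at an unadjusted p under 0.05, and 0 calls by DESeq2). MI0000716 had the lowest p for this difference, 0.34 ± 0.10 for males minus females (SE, edgeR adjusted p = 0.760) and 0.36 without Q50 female 3. That value was 0.04 in the fit lacking the L tag. MI0000716 ran from 127 to 181 CPM in the 14 controls of tag 1 and from 264 to 356 CPM in the 10 of tag 8, and its counts held split reads.

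The stem-loop that passed in females was MI0000685. Its log2 fold change was 1.16 ± 0.27 in females (SE, edgeR adjusted p = 0.0388) and 0.32 ± 0.27 in males (SE). The 4 Q50 females stood at 806, 721, 4944 and 556 CPM, so the value rests on Q50 female 3, while the 12 control females ran from 566 to 985 CPM. Without that library, an alternative chosen after seeing the data, it was -0.13 ± 0.15 in females (SE, edgeR adjusted p = 0.967), no stem-loop passed in females and 8 had an unadjusted p under 0.05. The difference between sexes for MI0000685 went from -0.84 to 0.46 for males minus females. In females MI0000225 was then at 0.50 ± 0.52 (SE), while in males it was at 1.51 ± 0.44 (SE, edgeR adjusted p = 0.0942).

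At 6 months, in other animals, the same contrast gave no call in edgeR (0% of 434, lowest adjusted p = 0.895, 13 at an unadjusted p under 0.05) and none in DESeq2. MI0000225 ran from 46.7 to 165 CPM in the 8 Q50 libraries of 6 months and from 39.8 to 374 CPM in the 23 controls, with a log2 fold change of -0.04 ± 0.40 (SE). MI0000151 averaged 52676 ± 6004 CPM in Q50 (SD, n = 8) and 48652 ± 6315 CPM in controls (SD, n = 23) at that age. Of the 11 stem-loops risen at 10 months, 3 had a value above 0 at 6 months (median -0.10), and none had an unadjusted p under 0.05. Without Q20-line WT female 3 of 6 months, 5 of the 11 were above 0 and the median was -0.02. MI0004133 had the lowest p at 6 months among higher values, 0.12 ± 0.05 on the log2 scale (SE, edgeR adjusted p = 0.895), and MI0000158 among lower ones, -0.17 ± 0.07 (SE, edgeR adjusted p = 0.895).

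Whether the Q50 effect changed with age was tested as an interaction. No stem-loop passed (edgeR, 0% of 434, lowest adjusted p = 0.133, and 0 calls by DESeq2), and 68 had an unadjusted p under 0.05. These 68 included 10 of the 11 risen and 5 of the 5 fallen stem-loops, which were chosen on the effect at 10 months that enters this test. Without Q50 female 3 of 10 months the unadjusted count was 46, with 5 of the 11 risen and 5 of the 5 fallen. MI0000706 had an age difference of -0.24 ± 0.07 (SE, edgeR adjusted p = 0.133), and -0.20 without that library. MI0004553 had one of 0.28 ± 0.08 (SE, edgeR adjusted p = 0.133), and 0.23 without that library. MI0000706 was also among the 5 that fell at 10 months and is abundant, averaging 132626 ± 16203 CPM in Q50 (SD, n = 8) and 153394 ± 16725 CPM in controls (SD, n = 24). Its counts held split reads. No L tag occurs at both ages. The tag was a term of the fit, but a Q50 effect that differs by tag cannot be told apart from one that differs by age.

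For longer repeats at 10 months, fitted in the same model against the same 24 controls, the values are set side by side. In Q92 no stem-loop passed in edgeR (0% of 434, 47 at an unadjusted p under 0.05), and in Q140 3 rose and 7 fell (2.30% of 434, with 0.691% higher and 1.61% lower). The 11 stem-loops that rose in Q50 had medians of 0.07 in Q92 and -0.07 in Q140, and the 5 that fell had medians of 0.04 and -0.04. MI0000225 was at -0.10 ± 0.37 in Q92 and -0.39 ± 0.38 in Q140 (SE), with 24.7 to 314 CPM in the 8 Q92 libraries and 40.8 to 137 CPM in the 8 Q140 libraries. MI0000151 also fell in Q140, by 0.21 on the log2 scale (SE 0.06, edgeR adjusted p = 0.0429), and was at -0.10 ± 0.06 in Q92 (SE).

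Within each L tag the directions were the same and few calls were made. In the 4 Q50 and 14 control libraries of tag 1 edgeR called none (43 at an unadjusted p under 0.05), and in the 4 and 10 of tag 8, which hold Q50 female 3, it called 2, of which 1 was among the 16. The 16 had the same signs within both tags, but they had been chosen with the tags pooled. MI0000225 was at 1.11 within tag 1 and 1.56 within tag 8, MI0000224 at 0.99 and 1.43, MI0000151 at -0.26 and -0.19, and MI0014041 at -0.29 and -0.14.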

How the data were processed

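Total RNA of the cerebellum, taken with the miRNeasy kit, was sequenced as single-end small RNA. Per the study's methods, clipped reads were aligned to mm10 with STAR and counted with HTSeq, and the submitters' notes list CASAVA 1.8.2. The authors deposited estimated counts for 1187 miRBase stem-loop IDs, not normalized, and FPKM values. Of these IDs, 268 held values more than 0.001 from a whole number, and they took 69.3% of all counts. The sources used here name no program that splits reads.

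Estimated counts were rounded and tested with edgeR 4.0.16 in R 4.3.3, a script tested on simulated data (quasi-likelihood test, TMM, Benjamini-Hochberg adjustment over the 434 stem-loops with 10 or more counts in 8 or more libraries of each age, threshold 0.05). The 48 libraries of 10 months gave the spread, with genotype, sex and L tag as terms, and sex and age differences were interactions. The SE of an edgeR log2 fold change was worked back from its size and the F statistic of its test. Libraries of Z.k under -5 were left out as in the study, 0 at 10 months and 2 at 6 months. A count of 0 allows up to 0.552 CPM in the smallest library (3 counts, counting error only).

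The groups, lists and rules were chosen with earlier results of these data known. The rule would have named each called stem-loop. As the files used here hold no microRNA names, at most 2 in each direction per comparison are named by rule (largest change against all controls, lowest p elsewhere), and MI0000685 in females and MI0000583 in the correlations were chosen after their values were seen. Lists of microRNAs and cell type markers, written by name, could not be applied. Alternatives were DESeq2 1.42.0 with and without replaced outliers, RLE factors, other filters, fits lacking the L tag or other groups, replicate numbers as a block, limma 3.58.1 on log2 FPKM (pseudocounts 1 and 0.1), voom with library weights, WT controls alone, single tags and omitted libraries.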

Additional observations from a re-analysis of the deposited data

Results flagged for a closer look

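Of 40 sets of 8 libraries that were searched for a value far from the rest (9 stem-loops and Z.k in each of the 4 groups of 10 months), 8 held one by Dixon's criterion, which chance alone meets in about 1 of 20 sets. These sets are not independent, as several stem-loops vary together.

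In Q50 mice, MI0000685 stood at 4944 CPM in Q50 female 3 with the next library at 1082 CPM, and MI0000583 at 28.2 CPM in the same library with the next at 15.8 CPM. Far values also occurred in controls. Q20 female 4 had the highest levels of its group for MI0000225 (233 CPM, next 119), MI0000224 (2473 CPM, next 1030) and MI0000583 (14.3 CPM, next 5.19). Q20-line WT female 1 had those of its group for MI0000225 (207 CPM, next 104) and MI0000224 (2173 CPM, next 1253). MI0014041 stood at 37.3 CPM in Q20 male 1, with the next library at 32.1 CPM. No far value was found for Z.k in any of the 4 groups.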

How the results depend on the processing

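For Q50 against controls at 10 months, 16 stem-loops were called. Without the low count filter there were 10, and with WT controls only 6, of which 1 was higher and 5 lower. Some settings took calls away with the median of the risen 11, 0.40, little moved. These were only the groups compared (3 calls, median 0.41), limma on log2(FPKM + 1) and log2(FPKM + 0.1) (0 calls each, 0.41 each), L tag 1 (0 calls, 0.36) and L tag 8 (2 calls, 0.43). In others the median was lower too, namely voom with library weights (0 calls, 0.23), the fit without libraries of Z.k under -3 (0 calls, 0.23) and that without the 3 Q50 libraries of lowest Z.k (0 calls, 0.11). The replicate block gave 0 calls, 75 stem-loops at an unadjusted p under 0.05 and a median of 0.38, with MI0000151 at an edgeR adjusted p of 0.0505 and MI0000225 at 0.0509. The labels do not say that a number marks shared animals or days. Same-numbered libraries deviated together (r over 0.1) in 4 of 8 pairs of Q50 with its littermates, 6 of 8 with Q20 and 6 of 8 with Q20-line WT. Q50 libraries correlated best with their own number in 3, 6 and 6 of these pairs. Each had 4 candidates of its sex in a group, so chance alone gives about 1 of 4. Q50 and Q20 libraries of the same number share their L tag, which was not taken out of these correlations. Whether the numbers mark a pairing cannot be told from these values. The count was 0 to 30 when single libraries were left out, the lowest without Q50 female 3 and the highest without Q50 male 2. In all settings run, those of the 16 that were tested had the same sign, except 1 stem-loop without the 3 Q50 libraries. All these settings use libraries on which the 16 were chosen. Against the Q20 line the 18 calls became 0 with only the groups compared, 4 with voom and library weights, 0 without libraries of Z.k under -3, 0 without the 3 Q50 libraries, and 0 to 33 when single libraries were left out. Against littermates the count was 0 in the other settings and 0 to 3 when single libraries were left out. For the WT groups, the sex difference, 6 months and the age difference it was 0 throughout. In females the 1 call was lost without Q50 female 3. The cause of these changes was not tested.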
